A study of Mus musculus with 12 samples.

Results

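The oxygen sensors Egln1 and Egln3, the endoplasmic reticulum oxidase Ero1a and the glycolytic enzymes Pfkp, Aldoa, Pgk1, Eno1 and Ldha were measured in mouse hippocampal slices kept for 2 h in an ischemic solution or in artificial cerebrospinal fluid. These 8 genes had 12 of the 46628 probes on the array. The probes were found by their identifiers, which carry the Entrez gene number. Egln1 had 2 probes, Egln3 had 1, Ero1a had 3, Pgk1 had 2, and Pfkp, Aldoa, Eno1 and Ldha had 1 each.

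The slices were organotypic cultures, thin pieces of hippocampus grown on a membrane, from C57BL/6J mice of mixed gender. IS + DIDS slices were in ischemic solution (IS) with DIDS, a stilbene compound used to block the membrane transport of chloride and bicarbonate. IS slices had the ischemic solution alone, ACSF + DIDS slices had artificial cerebrospinal fluid with DIDS, and Control ACSF slices had the fluid alone. Each of the 4 groups had 3 arrays, and whether these came from separate cultures is not given in the sources used here, so the p-values measure the spread between arrays, which may be technical.

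The data came in 2 forms that did not match throughout. The 12 sample files held only 9 distinct arrays, because the files of IS replicate 2, ACSF + DIDS replicate 1 and IS + DIDS replicate 1 held the signals of the arrays titled ACSF + DIDS replicate 3, IS + DIDS replicate 2 and IS + DIDS replicate 3. A value table of normalised signals held 12 distinct columns. The columns of those 3 titles had rank correlations of 0.95263, 0.95472 and 0.95421 with the files under their own titles, against 0.99692 to 0.99998 for the other 9. Levels below are therefore normalised signal intensities from the value table, whose column medians were 80.6 to 82.5, and each probe is compared only with itself.

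Differences are given from both forms on the log2 scale. In the sample files, an array filed under titles of 2 groups entered no comparison, which left 7 arrays (3 Control ACSF, 2 IS, 1 ACSF + DIDS and 1 IS + DIDS), and a group with 1 array was assumed to vary like the others. All 12 columns entered the value-table fit. The array titled ACSF + DIDS replicate 2 carries a description naming IS + DIDS, and its title was followed. IS + DIDS replicate 1 stood apart: the leading axis of a principal component analysis (28.5% of the variance) placed it at 50.59 and all the others between -17.69 and 8.923. For the Egln1 probes, value-table differences that rest on IS + DIDS are given with and without it. For other genes this is done only where stated.

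Egln1 and Egln3 encode prolyl hydroxylases that use oxygen to mark the alpha subunits of hypoxia-inducible factor (HIF) for destruction. When oxygen is short the mark is not made, the factor accumulates, and it binds short elements near genes that include those of glycolytic enzymes and of the hydroxylases themselves. Glycolysis makes ATP without oxygen, and in brain tissue it is the route left when respiration stops. Ero1a hands electrons from newly formed disulfide bonds to oxygen and is also a known HIF target.

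The core of the element bound by HIF is usually given as ACGTG or GCGTG, so the 250 bases before each annotated start of the 8 genes were read from the RefSeq promoter table (GRCm38.p6) and both cores were searched on both strands. On the opposite strand they read CACGT and CACGC, and the palindrome CACGTG counts once on each strand. Either core was found in a window of 8 of the 8 genes and in 12 of their 13 windows. Windows 2 and 3 of Aldoa overlap and hold the same match, and windows 2 and 3 of Eno1 overlap and hold the same matches. The share of all genes with a match in any window was not counted, and the shares that follow are of windows. Of 32851 windows of 27025 genes in the table, 38.6% held either core, 16.6% held ACGTG and 28.2% held GCGTG. The windows of both sensors, and of the enzymes Ldha and Eno1, are shown because the results below turn on these genes, with matches in capitals. Egln1 is at chr8:124949255-124949504 on the minus strand, Egln3 at chr12:54203875-54204124 on the minus strand, Ldha at chr7:46845554-46845803 on the plus strand (first of its 2 windows) and Eno1 at chr4:150236947-150237196 on the plus strand (second of its 3 windows).
Egln1: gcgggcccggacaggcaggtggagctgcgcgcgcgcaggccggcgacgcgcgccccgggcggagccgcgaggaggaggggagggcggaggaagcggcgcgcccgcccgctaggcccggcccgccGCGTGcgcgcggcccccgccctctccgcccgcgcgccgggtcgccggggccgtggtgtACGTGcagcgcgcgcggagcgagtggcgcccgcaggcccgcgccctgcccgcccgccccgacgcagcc
Egln3: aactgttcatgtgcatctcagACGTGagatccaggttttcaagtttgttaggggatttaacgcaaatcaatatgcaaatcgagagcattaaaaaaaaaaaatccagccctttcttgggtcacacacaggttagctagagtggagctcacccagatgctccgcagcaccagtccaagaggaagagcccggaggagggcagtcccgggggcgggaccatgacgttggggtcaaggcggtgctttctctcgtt
Ldha: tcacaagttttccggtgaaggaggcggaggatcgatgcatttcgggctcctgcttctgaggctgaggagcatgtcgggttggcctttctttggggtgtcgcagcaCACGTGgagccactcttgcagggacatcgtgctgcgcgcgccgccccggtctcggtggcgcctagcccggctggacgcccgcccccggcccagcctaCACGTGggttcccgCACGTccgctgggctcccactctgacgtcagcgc
Eno1: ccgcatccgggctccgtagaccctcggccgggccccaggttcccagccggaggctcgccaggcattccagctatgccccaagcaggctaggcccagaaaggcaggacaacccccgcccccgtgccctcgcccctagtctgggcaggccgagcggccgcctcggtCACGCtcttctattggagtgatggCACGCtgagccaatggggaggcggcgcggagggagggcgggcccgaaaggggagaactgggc

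The Egln1 window held 1 ACGTG and 1 GCGTG, first bases at -68 and -126 from the start, and was 86.0% G or C. In the Egln3 window 1 ACGTG began at -229, and 50.8% of bases were G or C. The Ldha window shown had 5 ACGTG matches, 4 of which are the 2 palindromes read on both strands, whereas 6.6% of all windows held 3 or more matches of either core. Its other window held 1 GCGTG. Eno1 had 2 GCGTG matches, both on the opposite strand. A match is a string of letters and says nothing of binding in these slices.

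**Figure D1:**
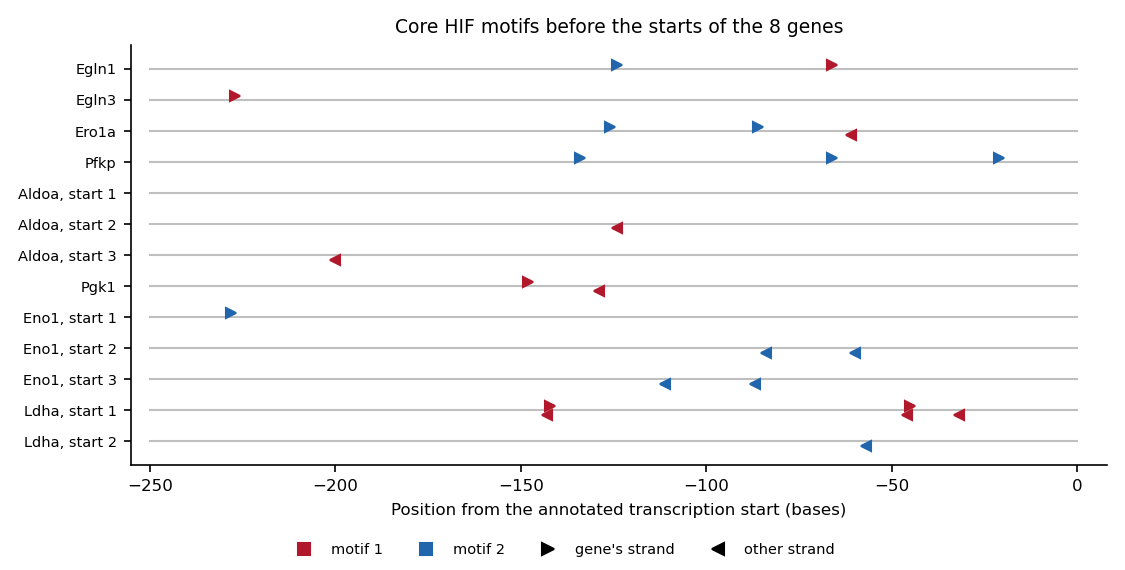
Positions of the 2 core motifs in the 250 bases before each annotated start of the 8 genes, in bases from the start (x axis), with 1 line per window. Ldha's first window holds 5 matches and 12 of the 13 windows hold at least 1.

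Of the 12 probes, 9 were detected, with a detection score above 0.99 on 9 of the 9 distinct arrays in the sample files, and 3 were detected on 0 of 9. The 9 were both Egln1 probes and 1 probe of each other gene. Because they were detected in every group, none entered the tests through a single group. Of the undetected probes, the Ero1a pair read 67.8 to 96.5 and 53.4 to 73.2 in the value table and the second Pgk1 probe read 64.6 to 89.8, close to the column medians.

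Neither Egln1 probe nor any of the other detected probes passed an adjusted p of 0.05 in any comparison, in either form of the data. The pattern across groups differed between the genes all the same. Egln3, the sensor known for strong induction by hypoxia, had its higher means in both ischemic groups, whereas both Egln1 probes had their lowest means in IS + DIDS. Egln3 and each of the enzymes had their lowest means in Control ACSF, though by little for Aldoa (14100 against 14130 in IS).

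Egln3 (scl0112407.1_41-S) read 627.2, 872.6 and 700.3 in IS + DIDS, 687.5, 778.9 and 745.8 in IS, 636.9, 552.2 and 658.1 in ACSF + DIDS, and 553.8, 518.7 and 404.9 in Control ACSF. Every IS array lay above every Control ACSF array, and IS + DIDS overlapped with IS and with ACSF + DIDS. Its means were 733.4 ± 126 in IS + DIDS, 737.4 ± 46.3 in IS, 615.7 ± 56 in ACSF + DIDS and 492.5 ± 77.8 in Control ACSF (SD, n = 3 each).

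The first Egln1 probe (scl00112405.2_28-S) read 940.5, 1399.1 and 1370.8 in IS + DIDS, 1606, 1531.9 and 2136.3 in IS, 1600.3, 1683.9 and 1878.1 in ACSF + DIDS, and 1415.8, 1591.9 and 1582.8 in Control ACSF. All IS + DIDS arrays lay below all others, the nearest being 1399.1 in IS + DIDS and 1415.8 in Control ACSF. Its means were 1237 ± 257 in IS + DIDS, 1758 ± 330 in IS, 1721 ± 143 in ACSF + DIDS and 1530 ± 99.1 in Control ACSF (SD, n = 3 each).

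The other Egln1 probe (scl0112405.12_70-S) read 248.3, 406.9 and 391.9 in IS + DIDS, 482.6, 461.4 and 481.7 in IS, 583.2, 515.3 and 468.5 in ACSF + DIDS, and 423.2, 431.2 and 422.1 in Control ACSF. Here too every IS + DIDS array was below every array of the other groups, and every IS and ACSF + DIDS array was above every Control ACSF array. The share of all probes that set a single group apart from all others was not counted, and shares for pairs of groups are given below. IS + DIDS replicate 1 was the lowest array for both probes.

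**Figure D2:**
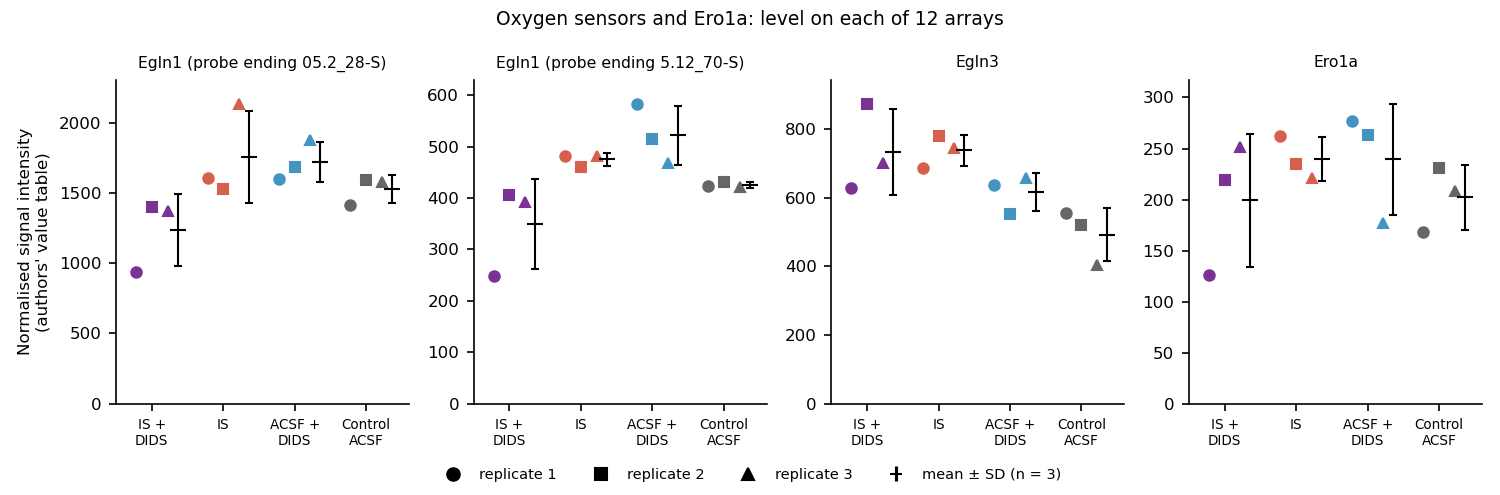
Normalised signal intensity (y axis, linear, from 0) of the sensor and Ero1a probes on each of 12 arrays, by group, with points for replicates and bars for mean ± SD (n = 3). Egln3 in IS (687.5 to 778.9) lies above Control ACSF (404.9 to 553.8), and both Egln1 probes are lowest in IS + DIDS.

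Ero1a (scl0050527.2_55-S) read 126.5, 219 and 251.8 in IS + DIDS, 262.7, 235 and 220.7 in IS, 277.4, 263.5 and 177.2 in ACSF + DIDS, and 168.1, 230.7 and 208.1 in Control ACSF. The 4 groups overlapped, and IS + DIDS replicate 1 was again the lowest array.

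Among the enzymes, Ldha, which turns pyruvate into lactate, read 14565, 15167 and 15122 in IS + DIDS, 12545, 13337 and 13920 in IS, 14381, 12119 and 13410 in ACSF + DIDS, and 12283, 12416 and 11763 in Control ACSF. IS + DIDS lay above each of the other groups without overlap, a pattern whose share of all probes was not counted, and IS lay above Control ACSF. Its means were 14950 ± 336 in IS + DIDS, 13270 ± 690 in IS, 13300 ± 1130 in ACSF + DIDS and 12150 ± 345 in Control ACSF (SD, n = 3 each).

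Eno1, the enolase of the late steps of glycolysis, read 8496.9, 7286.3 and 7495.4 in IS + DIDS, 6775.7, 6183.3 and 6862.8 in IS, 8400.6, 7005.5 and 7827.2 in ACSF + DIDS, and 6024.8, 5547.9 and 6380.6 in Control ACSF. Both DIDS groups lay above both groups without DIDS, and IS overlapped with Control ACSF. The share of all probes with this pattern was not counted. Arrays with the same chip number in the column headers are taken to share a chip. The DIDS arrays whose chip is known were all on chip 2, and values within it are given below. Its means were 7760 ± 647 in IS + DIDS, 6607 ± 370 in IS, 7744 ± 701 in ACSF + DIDS and 5984 ± 418 in Control ACSF (SD, n = 3 each).

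Aldoa, the aldolase that splits fructose bisphosphate, read 17564, 16084 and 15556 in IS + DIDS, 13422, 12509 and 16474 in IS, 14182, 14537 and 14747 in ACSF + DIDS, and 14314, 11332 and 16652 in Control ACSF. IS and Control ACSF each spread more widely than the 2 DIDS groups, and only the pair of IS + DIDS and ACSF + DIDS did not overlap. Pgk1, which makes ATP from bisphosphoglycerate, read 14444, 16331 and 15389 in IS + DIDS, 13257, 14382 and 15729 in IS, 13965, 15308 and 16502 in ACSF + DIDS, and 12494, 14086 and 14118 in Control ACSF. Pfkp, a phosphofructokinase subunit at an early committed step, read 144.8, 293.5 and 334.5 in IS + DIDS, 210.4, 244.3 and 345.5 in IS, 271.1, 284.2 and 232.2 in ACSF + DIDS, and 234.4, 199.2 and 258.2 in Control ACSF. Every pair of groups overlapped for Pfkp, and its IS + DIDS replicate 1 was the lowest array of all.

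**Figure D3:**
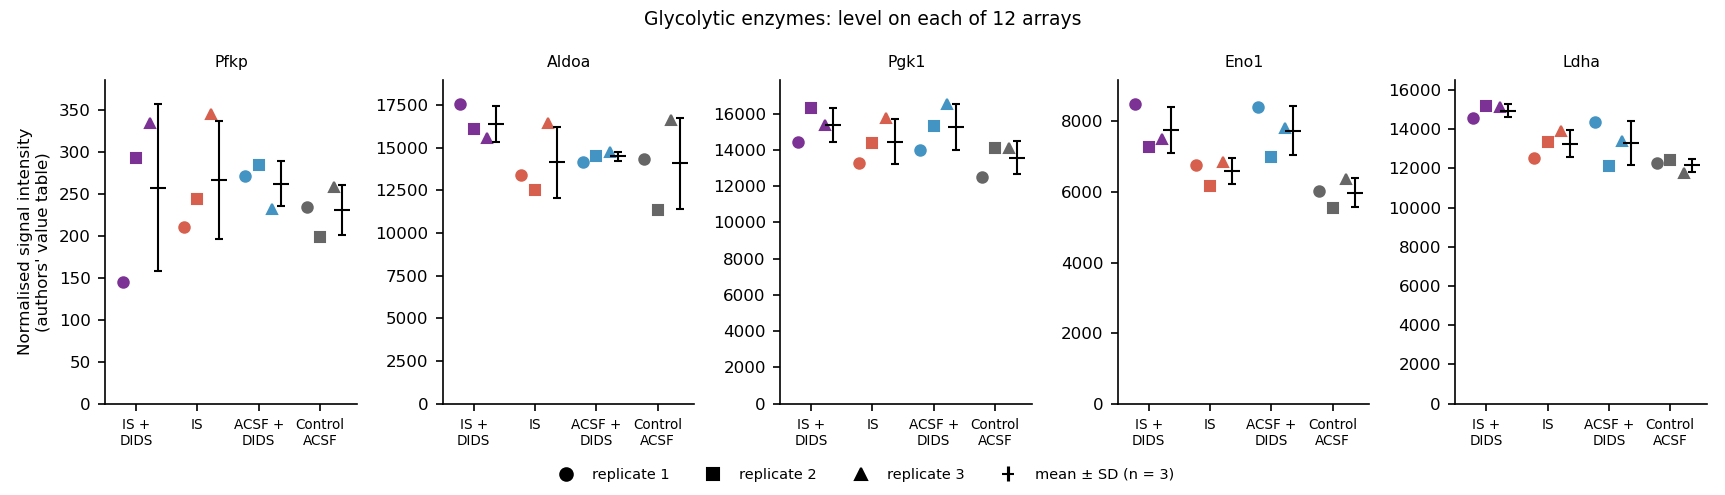
Normalised signal intensity (y axis, linear, from 0) of the 5 detected enzyme probes on each of 12 arrays, by group, with points for replicates and bars for mean ± SD (n = 3). Eno1 lies higher in both DIDS groups than in IS and Control ACSF, and Ldha is highest in IS + DIDS.

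IS against Control ACSF concerns the response to the ischemic solution alone. All 9 detected probes had a difference above 0 in both forms, where 48.2% of all probes did in the sample files and 49.2% in the value table. The count rests on single arrays: in the sample files Aldoa, Pfkp and Pgk1 turned to -0.039, -0.066 and -0.03 without IS replicate 3, and in the value table Pfkp turned to -0.016 without that array and Aldoa to -0.137 without Control ACSF replicate 2. With the replicate number as a block Aldoa turned to -0.035 in the sample files. None passed the test, which called 0.0179% of probes in the sample files (3 probes, or 0 with the block) and 0.891% in the value table. An unadjusted p under 0.05 was reached by 2 of 9 in the sample files (10.9% of all probes) and by 1 of 9, Egln3, in the value table (8.92%). Egln3 differed most, by 0.54 (SE 0.119, adjusted p = 0.296, limma) in the sample files and by 0.59 (SE 0.149, 1.51-fold, adjusted p = 0.113) in the value table. Over the alternatives its difference ranged from 0.439 to 0.737 and its adjusted p from 0.0615 to 0.67. Several arrays share a chip, and in the value table Egln3 differed by 0.359 on the chip that held 1 IS and 2 Control ACSF arrays, and by 0.881 on the chip that held 1 of each.

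The other sensor and the enzymes differed less. Egln1's first probe differed by 0.33 (adjusted p = 0.565) in the sample files and 0.19 (adjusted p = 0.839) in the value table, and its other probe by 0.16 in both (adjusted p = 0.381 and 0.872). Ero1a differed by 0.104 and 0.25, Pfkp by 0.093 and 0.19, Aldoa by 0.115 and 0.011, Pgk1 by 0.099 and 0.09, Eno1 by 0.19 and 0.144, and Ldha by 0.115 and 0.13, in the sample files and the value table. In the value table IS lay wholly above Control ACSF for 3 of the 9 probes (Egln3, Egln1's other probe and Ldha), where 7.35% of all probes did, and wholly below for 0 of 9 (8.58%).

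IS + DIDS against IS concerns DIDS added to the ischemic solution. Most sensor and enzyme probes lay on opposite sides of 0 in the value table: 3 of 3 sensor probes had differences below 0 and 4 of 5 enzyme probes above 0, where 52.5% of all probes were above 0. In the sample files 3 of 3 sensor probes were below 0 and 5 of 5 enzyme probes above 0 (54.6% of all probes above 0). The test called 0% of probes in the sample files, and 3.07% in the value table, and no member among them. An unadjusted p under 0.05 was reached by 1 of 9 in the sample files (12.6% of all probes, 2107 in number) and by 2 of 9, both Egln1 probes, in the value table (18%). Egln1's first probe differed by -0.51 (SE 0.167, 0.7-fold, adjusted p = 0.12, limma) in the value table, by -0.33 (adjusted p = 0.257) there without IS + DIDS replicate 1, and by -0.48 (adjusted p = 0.476) in the sample files. The other probe differed by -0.48 (SE 0.163, 0.717-fold, adjusted p = 0.138) in the value table, by -0.25 (adjusted p = 0.26) without that array, and by -0.21 (adjusted p = 0.307) in the sample files. On the chip that held 2 IS + DIDS arrays and 1 IS array the 2 probes differed by -0.625 and -0.271. Over the alternatives, which include blocks, the first probe ranged from -0.724 to -0.229 and the other from -0.607 to -0.076. The lowest adjusted p was 0.0626 (limma), for the first probe.

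Egln3 differed little, by -0.02 in both forms (adjusted p = 0.966 in the value table), and by 0.086 without IS + DIDS replicate 1. Eno1 differed by 0.23 (SE 0.111, 1.17-fold, adjusted p = 0.298) and Ldha by 0.17 (SE 0.098, 1.13-fold, adjusted p = 0.38) in the value table, and by 0.153 and 0.178 in the sample files. Without IS + DIDS replicate 1 the value table gave 0.163 for Eno1 and 0.192 for Ldha. With chip as a block in the value table Eno1 differed by 0.071 and Ldha by 0.185. On the chip that held 2 IS + DIDS arrays and 1 IS array they differed by 0.107 and 0.122. Aldoa differed by 0.22 and 0.044 and Pgk1 by 0.09 and 0.061, value table first. Without IS + DIDS replicate 1 the value table gave 0.172 for Aldoa and 0.137 for Pgk1. Ero1a and Pfkp differed by -0.32 and -0.107 in the value table with IS + DIDS replicate 1, and by -0.024 and 0.264 without it. With the replicate number as a block, Egln3 turned to 0.036, Aldoa to -0.079 and Pgk1 to -0.043 in the sample files. With chip as a block, Egln3 turned to 0.217 and Aldoa to -0.085 in the value table, and Egln3, Aldoa and Pgk1 to 0.039, -0.125 and -0.022 in the sample files. Groups did not overlap for Eno1 and Ldha, both higher (11.7% of all probes), and for both Egln1 probes, lower (11.3%).

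ACSF + DIDS against Control ACSF concerns DIDS in the absence of the ischemic solution. Differences above 0 were found for 9 of 9 probes in the value table (50.6% of all probes) and for 8 of 9 in the sample files (50.4%), Ldha being -0.031 there (0.089 with median scaling) and 0.13 in the value table. With chip as a block the value table gave -0.138 for Pfkp and -0.16 for Aldoa, and the sample files gave -0.019 for Egln1's first probe, -0.004 for Pfkp and -0.159 for Aldoa. No member passed, where 0% of probes passed in the sample files and 0.592% in the value table. An unadjusted p under 0.05 was reached by 1 of 9 in the sample files (3.94% of all probes, 659 in number) and by 2 of 9, Egln3 and Eno1, in the value table (8.79%). Eno1 differed most, by 0.37 (SE 0.111, 1.29-fold, adjusted p = 0.274, limma) in the value table and 0.23 (adjusted p = 1) in the sample files, with a range of 0.165 to 0.441 over the alternatives. On the chip that held 2 ACSF + DIDS arrays and 1 Control ACSF array it differed by 0.215. Egln3 differed by 0.33 (adjusted p = 0.563) and the Egln1 probes by 0.168 and 0.29 (adjusted p = 0.826 and 0.651) in the value table. The groups did not overlap for 3 probes, Eno1 and both Egln1 probes, where 7% of all probes were wholly higher, and 0 of 9 were wholly lower (8.64%).

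IS + DIDS against ACSF + DIDS concerns the ischemic solution in slices that all had DIDS. Differences above 0 were found for 5 of 9 probes in the value table (51% of all probes) and for 6 of 9 in the sample files (53%). The sample files called 0% of probes and the value table called 2.47%, with no member. An unadjusted p under 0.05 was reached by 2 of 9 in the sample files (5.98% of all probes, 1000 in number) and by 2 of 9, both Egln1 probes, in the value table (20.9%). Egln1's other probe differed by -0.61 (SE 0.163, 0.655-fold, adjusted p = 0.0692, limma) in the value table, by -0.38 (adjusted p = 0.117) without IS + DIDS replicate 1, and by -0.27 (adjusted p = 0.736) in the sample files. Its first probe differed by -0.5 (SE 0.167, 0.709-fold, adjusted p = 0.129) in the value table, by -0.31 (adjusted p = 0.326) without that array, and by -0.308 in the sample files. Egln3 differed by 0.24 (adjusted p = 0.36), and by 0.35 (adjusted p = 0.29) without that array. For Ldha the difference was 0.17 (adjusted p = 0.326) and for Aldoa 0.18 (adjusted p = 0.491), and without that array 0.191 and 0.127. These 2 enzymes were wholly higher in IS + DIDS (13.6% of all probes) and both Egln1 probes wholly lower (12.5%).

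Whether the response to the ischemic solution differed with DIDS was tested as the interaction, the response with DIDS minus that without. It was -0.68 (SE 0.236, adjusted p = 0.307, limma) and -0.77 (SE 0.231, adjusted p = 0.225) for the 2 Egln1 probes in the value table, -0.5 and -0.54 without IS + DIDS replicate 1, and -0.64 and -0.43 in the sample files. Egln3 had -0.35 (adjusted p = 0.572) in the value table, and -0.245 without IS + DIDS replicate 1. Differences above 0 were found for 2 of 9 probes in each form, where 53.8% of all probes in the sample files and 50.5% in the value table were above 0. The interaction called 0% of probes in the sample files and 0.532% in the value table. An unadjusted p under 0.05 was reached by 1 of 9 in the sample files (5.64% of all probes, 944 in number) and by 2 of 9, both Egln1 probes, in the value table (10.8%). In the value table, 1 member (Egln1's other probe) lay wholly higher in IS than in Control ACSF and wholly lower in IS + DIDS than in ACSF + DIDS, as did 0.568% of all probes, and 0 of 9 showed the opposite pattern (0.52%).

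**Figure D4:**
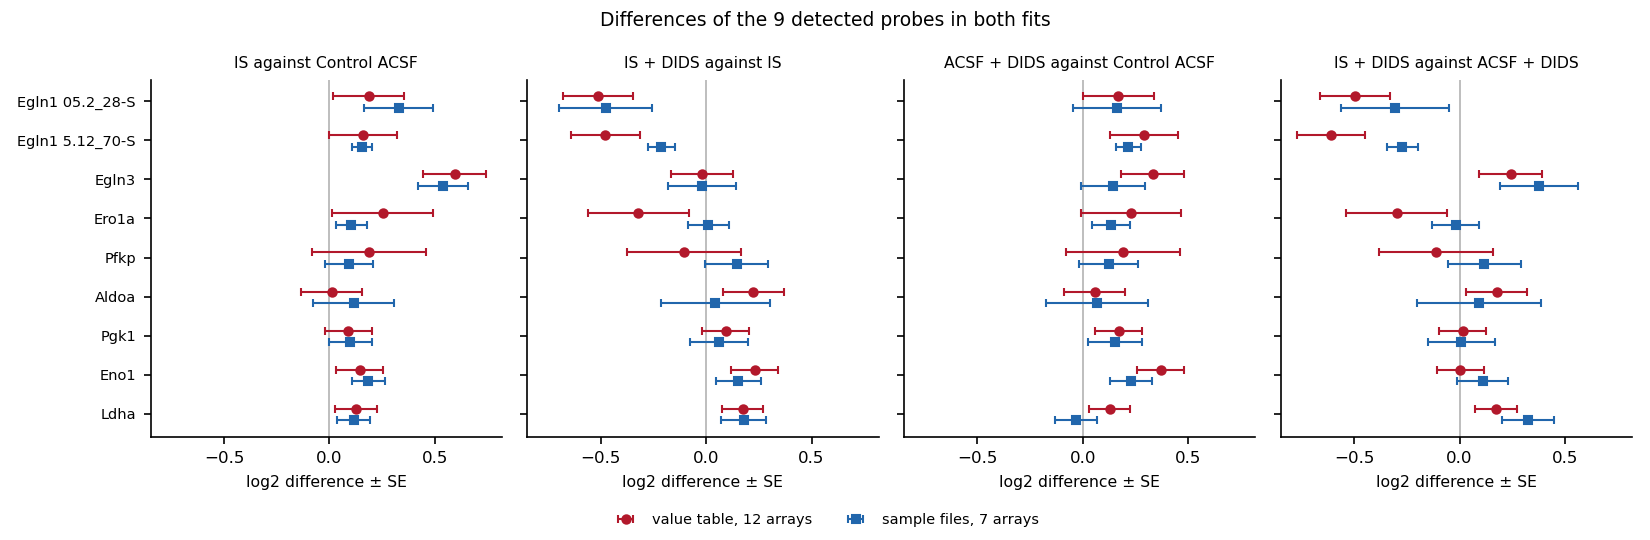
Log2 difference (x axis) of the 9 detected probes in each of 4 comparisons, with the value table (12 arrays) and the sample files (7 arrays) as separate symbols and bars for 1 SE. In IS against Control ACSF every probe lies above 0 and Egln3 farthest (0.59 and 0.54), while both Egln1 probes lie below 0 in the 2 comparisons of IS + DIDS.

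The other genes of these pathways showed no call. Of 22 genes of glycolysis and glucose transport, 17 were named on the array, and 12 besides the 8 genes were measured. No glucose transporter was among those measured. In IS against Control ACSF, 7 of these 12 were higher and 5 lower in the value table by each gene's brightest probe, and 9 and 3 in the sample files. Their median in the value table was 0.07, or 0.031 with a gene's probes averaged, where the median of all probes was -0.003 to 0.013 over the comparisons. In the sample files it was 0.108, or 0.03 with probes averaged. In ACSF + DIDS against Control ACSF, 9 were higher and 3 lower (median 0.165), and in IS + DIDS against IS 8 and 4 (median 0.132). In IS + DIDS against ACSF + DIDS, 5 were higher and 7 lower (median -0.034, or -0.064 with probes averaged), but 8 and 4 in the sample files (median 0.104, or 0.032). Gpi1, which converts glucose phosphate to fructose phosphate, read 13814, 12755 and 13037 in ACSF + DIDS, against 9390.4, 9239.1 and 10179 in Control ACSF. Its difference was 0.46 (SE 0.113, adjusted p = 0.131, or 0.0605 without IS + DIDS replicate 1) in the value table and 0.413 (adjusted p = 1) in the sample files. In IS against Control ACSF, Gpi1 differed by 0.19, Pfkl, a phosphofructokinase subunit, by 0.22, and Gapdh by 0.094, in the value table.

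Of 16 genes of the HIF system, 3 besides the 8 genes were measured: Rbx1 and Elob, subunits of the ligase that marks HIF, and the alpha subunit Hif3a. In IS against Control ACSF they differed by -0.087, 0.031 and 0.029 in the value table. Mxi1, a repressor of Myc targets and the only measured gene of 21 other known HIF targets, differed by 0.25 (adjusted p = 0.628) in the value table and 0.376 (adjusted p = 0.255) in the sample files. Mpc2, a subunit of the mitochondrial pyruvate carrier, read 5286.8, 5763.1 and 6482.9 in IS + DIDS, against 4730.8, 4924.8 and 4415.9 in IS, without overlap (0.31, adjusted p = 0.181). Of all probes, 11.7% were wholly higher in that comparison. Without IS + DIDS replicate 1 Mpc2 differed by 0.383. Pdhb, the other of 2 measured genes of pyruvate and lactate handling, differed by -0.019. Among 5 measured genes of oxidative folding, the thioredoxin-domain gene Txndc12 differed by 0.39 (adjusted p = 0.133) in IS + DIDS against IS in the value table, and 1 was higher and 4 were lower in that comparison. Without IS + DIDS replicate 1 Txndc12 differed by 0.276. The other genes drawn from the lists (Eno2, Tpi1, Ldhb, Pfkfb2, Pfkfb4, Pdhb, Vkorc1l1, Txndc5 and Qsox1) did not pass either, the lowest adjusted p in the value table being 0.133, for Vkorc1l1 in IS + DIDS against ACSF + DIDS (-0.415, against -0.262 without IS + DIDS replicate 1 and -0.061 in the sample files).

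**Figure D5:**
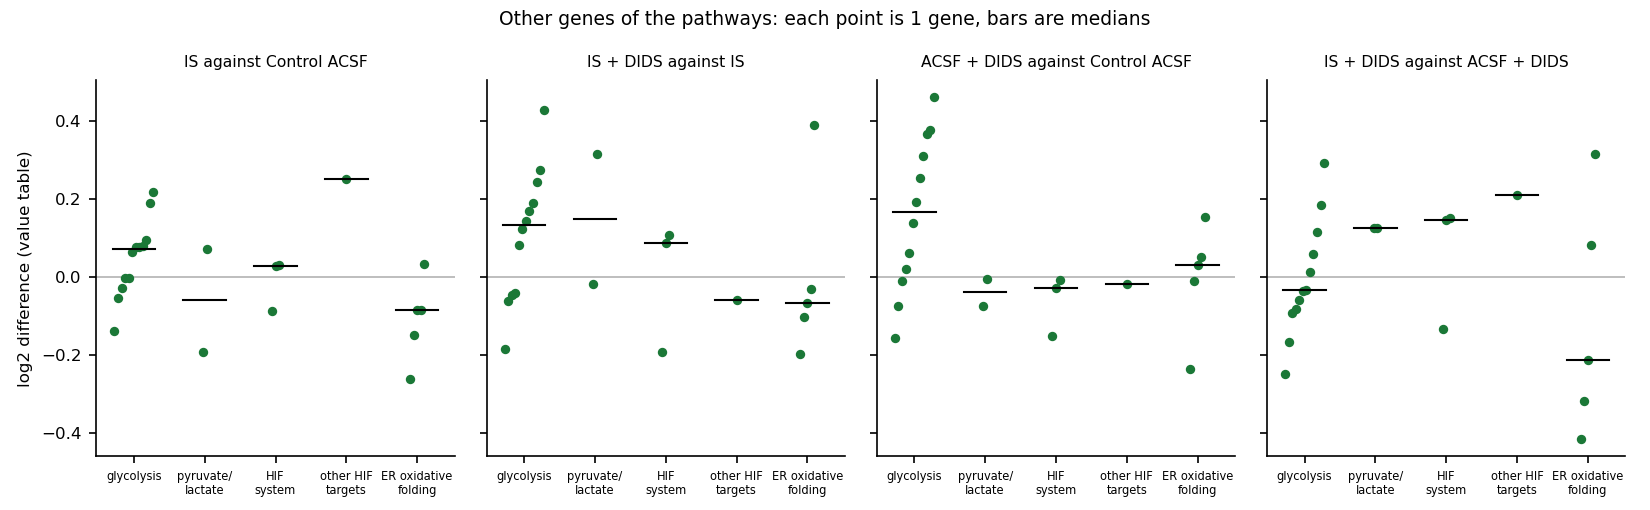
Log2 difference in the value table (y axis) of the other measured genes of the pathway lists (x axis), 1 point a gene by its brightest probe, in each of 4 comparisons. The 12 glycolytic genes, none a glucose transporter, have medians of 0.07 in IS against Control ACSF (0.031 with probes averaged) and 0.165 in ACSF + DIDS against Control ACSF.

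In whole slices, fewer cells of a type and less RNA per cell cannot be told apart. Of the marker lists, 6 of 12 neuronal, 4 of 8 astrocytic, 3 of 8 microglial, 4 of 8 oligodendrocytic, 1 of 7 fibroblast and 0 of 7 endothelial genes were measured. The summed level of the neuronal markers was 22940 to 24330 in IS + DIDS, 20980 to 28470 in IS, 24780 to 28560 in ACSF + DIDS and 21220 to 25160 in Control ACSF. In ACSF + DIDS against Control ACSF, 6 of these 6 markers were higher in the value table (median 0.284). In the sample files 5 were higher and 1 lower (median 0.146). The interaction was below 0 for 6 of 6 in each form (medians -0.164 and -0.154, value table first). Astrocytic markers summed to 25110 to 31280 in IS + DIDS, 31300 to 36030 in IS, 26630 to 37650 in ACSF + DIDS and 31860 to 38460 in Control ACSF. The sums of IS + DIDS and IS came as close as 31280 and 31300, and in that comparison 2 of the 4 markers were lower (Gfap -0.376 and Aqp4 -0.301) and 2 higher (Slc1a2 0.25 and S100b 0.287) in the value table. In the sample files 3 of the 4 were lower and 1 higher there (median -0.308, against -0.025 in the value table). Oligodendrocytic markers summed to 11810 to 16910 in IS + DIDS, 13340 to 15650 in IS, 11090 to 15210 in ACSF + DIDS and 12010 to 13560 in Control ACSF. The sum of microglial markers was 5272 to 9178 in IS + DIDS, with 9178 in replicate 1, 5180 to 6117 in IS, 5114 to 6390 in ACSF + DIDS and 5002 to 7139 in Control ACSF. Dcn, the 1 measured fibroblast marker, read 2383 to 4870 in IS + DIDS, 2045 to 2565 in IS, 3141 to 5078 in ACSF + DIDS and 1771 to 2413 in Control ACSF. Its ACSF + DIDS arrays lay above Control ACSF without overlap, as did those of 7% of all probes. The part of these markers in the members' differences was not tested.

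By the Pearson correlation of log2 levels over the 12 arrays, the named genes most like Egln3 were Cpeb1 (0.892), Col6a1 (0.835), Zfyve1 (0.833), Lysmd4 (0.81) and Eif4ebp1 (0.81), out of 4404 searched. Those most like Ldha were Med24 (0.867), Pop5 (0.861), Brat1 (0.858), Cstf1 (0.858) and Ccnq (0.839). The arrays share groups and chips, and these values are a description only.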

How the data were processed

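Total RNA was amplified, labelled with biotin and hybridised to mouse bead arrays, per the labels' protocols. The sample files hold bead-averaged intensity per probe without normalisation, with a detection score, bead numbers and bead SDs, written by BeadStudio 2.3.47 per the file headers. The submitters' processing notes name BeadStudio 2.0 for the deposited value table, whose values are normalised intensity on a linear scale, not centred, by a method not given in the sources used here. The score of detection is also the authors' deposited value.

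From the sample files, signals were background-corrected and quantile-normalised by neqc of limma 3.58.1 in R 4.3.3 with an offset of 16. A probe was kept where its detection score exceeded 0.99 on 3 or more distinct arrays, which left 16723 probes. One model with a coefficient per group was fitted by lmFit and eBayes on 7 arrays, with 3 residual degrees of freedom. The same model was fitted to log2 of the value table (12 arrays, 16717 probes, 8 residual degrees of freedom), and p-values were Benjamini-Hochberg adjusted over all probes at 0.05. Scripts were tested on simulated data. Genes were named from identifiers through the RefSeq gene table (9796 probes named). The number of arrays limits the precision. Median signal was 69.5 to 131.9 per array and 32.8 to 35.6% of probes were detected. On 2 chips known from the files, chip 1 held Control ACSF 1 and 2 and IS 1, and chip 2 held the other 6 arrays that match their own file. Chip 1 thus held no DIDS array. The second axis of the principal component analysis (19.3% of the variance) placed chip 1 at 19.47 to 20.54 and chip 2 at -21.69 to -3.498. The values within a chip, and a block for it, are given beside the results they touch. Titles give the groups the same replicate numbers. In the value table, deviations from the group means correlated by 0.204, 0.14 and 0.426 for the 3 same-numbered pairs of IS and Control ACSF. They correlated by 0.198, 0.146 and 0.129 for those of IS + DIDS and IS. The numbers were therefore taken to pair these arrays. The SEs and p-values printed for members in these comparisons nevertheless come from the fits without a replicate block. Control ACSF 1 and IS 1 also shared chip 1, and Control ACSF 3, IS 3 and IS + DIDS 3 shared chip 2. Pairing and chip cannot be told apart for these. Not every pair of the other comparisons exceeded 0.1. Members, lists and markers were chosen with earlier results of these data known. Besides all probes of the 8 genes, the genes named were drawn from each pathway list as those with the smallest p in each comparison, and for Egln3 and Ldha as the 5 most correlated genes. Alternatives were the background correction, normalisation, filter, blocks, placement of doubly filed arrays and leaving out arrays.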

Additional observations from a re-analysis of the deposited data

Results flagged for a closer look

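The interaction of Egln1's other probe (scl0112405.12_70-S) was -0.769 on the log2 scale in the value table (SE 0.231, unadjusted p = 0.00568, adjusted p = 0.225, limma, 12 arrays). It stands here because the response to the ischemic solution differed between slices with and without DIDS at an unadjusted p under 0.05 and with groups that did not overlap in opposite directions. It did not pass after adjustment over all probes. With DIDS the response was -0.61 and without DIDS 0.159. Without IS + DIDS replicate 1 the interaction was -0.541 (adjusted p = 0.191), and in the sample files it was -0.428 (adjusted p = 0.786).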

How the results depend on the processing

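No member passed the threshold in either form or under any of 1566 alternative values (lowest adjusted p 0.0615). Of these, 1485 kept the direction and 81 reversed it, and the cause of a reversal was not tested. In the sample files the fit called 3 probes for IS against Control ACSF and 0 for each other comparison. The counts below follow the order IS against Control ACSF, IS + DIDS against IS, ACSF + DIDS against Control ACSF, IS + DIDS against ACSF + DIDS, and interaction, naming those that moved by 1.5 times or more. The value table gave 149, 514, 99, 413 and 89. Trend and robust eBayes gave 14, 1, 13, 5 and 4. Normexp gave 30, then 4 for ACSF + DIDS against Control ACSF and 1 for the interaction, and no background correction gave 29, 4 and 1 for the same. The negative control spread by median absolute deviation gave 21 and 3 for the comparisons with Control ACSF. Median scaling gave 0 and 1, and no detection filter 0 and 2, for those. Only the arrays compared gave 1 for ACSF + DIDS against Control ACSF. That setting had no residual degrees of freedom for IS + DIDS against ACSF + DIDS, and it was not run for the interaction. Chip as a block gave 2 for IS against Control ACSF. ACSF + DIDS 2 counted as IS + DIDS gave 1 for each of the first pair of comparisons. Let A be the array titled both IS 2 and ACSF + DIDS 3, and B the one titled both ACSF + DIDS 1 and IS + DIDS 2. With A in ACSF + DIDS and B in IS + DIDS the counts were 30, 205, 10, 30 and 5. With both in ACSF + DIDS they were 1 for IS + DIDS against IS and 1 for ACSF + DIDS against Control ACSF. With A in IS and B in ACSF + DIDS they were 0 and 1 for the first pair, and with A in IS and B in IS + DIDS 143 for IS + DIDS against IS. Leaving out an array gave 0 to 7, 0 to 5, 0 to 1 and, for the interaction, 0 to 1. Leaving out the lone array of a DIDS group gives no value for its comparisons. In the value table, leaving out an array gave 64 to 226, 121 to 518, 59 to 139, 125 to 466 and 40 to 103, and chip as a block gave 43 for ACSF + DIDS against Control ACSF and 227 for IS + DIDS against ACSF + DIDS.

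Over all groups, same-numbered pairs had correlations of deviations from -0.322 to 0.426, with 10 of 18 above 0.1, and 6 of 12 arrays correlated best with their own number, so that the numbers were taken to pair the arrays in IS against Control ACSF and IS + DIDS against IS only. The replicate block gave 0 calls in each comparison of the sample files and 143, 620, 116, 465 and 95 in the value table. It changed no call of a member. It reversed, in the sample files, Aldoa to -0.035 in IS against Control ACSF, Egln3 to 0.036, Aldoa to -0.079 and Pgk1 to -0.043 in IS + DIDS against IS, and Pfkp to -0.141 in the interaction. In IS + DIDS against ACSF + DIDS it reversed Ero1a to 0.082, Pfkp to -0.084, Aldoa to -0.48, Pgk1 to -0.052 and Eno1 to -0.087.

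Other reversals of members in the sample files were as follows. In IS + DIDS against IS, Aldoa was -0.002 with ACSF + DIDS 2 as IS + DIDS, Egln3 0.154 and Ero1a -0.027 with A in ACSF + DIDS and B in IS + DIDS, Egln3 0.026 with A in IS and B in ACSF + DIDS and 0.2 with A in IS and B in IS + DIDS, and Ero1a -0.013 with median scaling. Chip as a block gave Egln3 0.039, Aldoa -0.125 and Pgk1 -0.022 there, and the value table gave Ero1a -0.322 and Pfkp -0.107. In ACSF + DIDS against Control ACSF, Ldha was 0.132 with both in ACSF + DIDS, 0.043 with A in ACSF + DIDS and B in IS + DIDS, 0.139 with A in IS and B in ACSF + DIDS, 0.089 with median scaling and 0.127 in the value table, and chip as a block gave Egln1 -0.019, Pfkp -0.004 and Aldoa -0.159. In IS + DIDS against ACSF + DIDS, Ero1a was 0.071 and Pgk1 -0.074 with both in ACSF + DIDS, Ero1a 0.033 with A in ACSF + DIDS and B in IS + DIDS, Ero1a 0.027 and Pgk1 -0.051 with A in IS and B in ACSF + DIDS, and Pfkp -0.111 in the value table. In the interaction, Egln3 was 0.058 and Aldoa 0.016 with A in IS and B in IS + DIDS, Aldoa 0.033 with chip as a block, Pfkp -0.054 with median scaling, and Pfkp -0.297 and Aldoa 0.166 in the value table.

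Leaving out an array of the sample files gave ranges that cross 0. In IS against Control ACSF they were -0.039 to 0.27 for Aldoa, -0.066 to 0.252 for Pfkp and -0.03 to 0.229 for Pgk1. In IS + DIDS against IS they were -0.111 to 0.199 for Aldoa, -0.079 to 0.039 for Egln3, -0.05 to 0.07 for Ero1a, -0.014 to 0.304 for Pfkp and -0.068 to 0.191 for Pgk1. Aldoa ran from -0.082 to 0.188 in ACSF + DIDS against Control ACSF, and the interaction from -0.178 to 0.131 for Aldoa, -0.136 to 0.182 for Pfkp and -0.219 to 0.039 for Pgk1. In the value table such ranges were -0.137 to 0.14 for Aldoa and -0.016 to 0.341 for Pfkp in IS against Control ACSF, -0.152 to 0.086 for Egln3 and -0.34 to 0.264 for Pfkp in IS + DIDS against IS, and -0.092 to 0.186 for Aldoa in ACSF + DIDS against Control ACSF. In IS + DIDS against ACSF + DIDS they were -0.067 to 0.064 for Eno1, -0.343 to 0.261 for Pfkp and -0.049 to 0.072 for Pgk1, and in the interaction -0.019 to 0.104 for Ldha and -0.53 to 0.074 for Pfkp.

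Chip as a block in the value table, over the 9 arrays with a known chip, reversed Pfkp to -0.138 and Aldoa to -0.16 in ACSF + DIDS against Control ACSF, Ero1a to 0.12, Pfkp to 0.287, Pgk1 to -0.004 and Eno1 to -0.003 in IS + DIDS against ACSF + DIDS, Egln3 to 0.217 and Aldoa to -0.085 in IS + DIDS against IS, and Pfkp to 0.128 in the interaction. The median absolute deviation setting and the block and left-out-array settings of the value table were chosen after seeing the data. A very bright negative control spot (13592 to 15389 per array) raised the SD of the negative controls to 256.2 to 304.3, against a median absolute deviation of 8.525 to 16.53. Signal over background limits the 3 undetected probes, for which no difference is given.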
